A study of Mus musculus with 10 samples.

Results

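The genes described here are 43 genes of the cell cycle and of DNA replication, taken from a fixed list of gene symbols: cyclins, cyclin-dependent kinases (CDKs) and their inhibitors, replication enzymes and mitotic genes. All 43 were among the 19782 genes of the deposited table, and all 43 passed the filter on low counts that left 12505 genes for testing. They were measured in microglia, the resident macrophages of the brain, which had been isolated from mouse hippocampi by CD45low CD11b+ staining and sequenced as Smart-Seq libraries from 1 ng of total RNA per library. There were 4 libraries of wild-type mice and 3 of 5xFAD mice, called control here, both fed normal diet. The 5xFAD line carries mutant human transgenes driven in neurons by the Thy1 promoter, and it models the amyloid deposition of Alzheimer's disease. A further 3 libraries, called repopulated, came from 5xFAD mice that received chow with 290 mg/kg PLX3397 from 4 months of age for 1 month, followed by normal diet for 1 month. PLX3397 inhibits the receptor CSF1R, on which microglia depend for survival, so that microglia are depleted during feeding and regrow after it. The labels write the drug both as PLX3397 and as PLX3377. They give no age for the wild-type and control mice and do not say whether each library came from a separate mouse, so the spread behind every p-value is that between samples and may be technical. No library came from wild-type microglia after repopulation, so repopulation was seen in 5xFAD mice only.

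A cell enters the cycle when D-type cyclins with CDK4 and CDK6 phosphorylate the retinoblastoma protein RB, which releases E2F factors and switches on the genes of DNA replication. Later, cyclins A and B with CDK1 drive the cell into mitosis, and the DREAM and MuvB complexes keep many mitotic genes silent in resting cells through a promoter element called CHR, often next to CCAAT boxes. Microglia divide slowly in the healthy adult brain, proliferate around amyloid plaques, and regrow from surviving cells by division after depletion. The question put to these genes was whether regrown microglia still proliferate 1 month after the drug was withdrawn. Transcripts were measured here, not dividing cells, and in bulk RNA a larger number of dividing cells cannot be told apart from more RNA per dividing cell.

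Levels are given as CPM, counts scaled to the library total and by trimmed mean of M-values factors, and differences as log2 fold changes. A gene was called when its p from the edgeR quasi-likelihood test, adjusted by Benjamini and Hochberg's method over all 12505 genes, was at most 0.05. Library totals ran from 18501136 to 23286814 estimated counts. Microglial markers (10 genes, P2ry12, Tmem119 and Csf1r among them) summed to between 37707 and 50708 CPM in each library. The single markers were less even than their sum. In control against wild type 2 rose and 5 fell, which is 70%, where 18.1% of all genes tested were called. In repopulated against control 1 rose and 0 fell (10%, against 0.568% of all genes). In repopulated against wild type 1 rose and 1 fell (20%, against 4.18%). Wild-type 3 stood apart, with neuron markers at a sum of 58.6 CPM against 3.60 to 11.7 in the other libraries, and erythroid markers at 281 CPM against 0.0449 to 20.7. Its astrocyte markers summed to 547.8 CPM against 222.8 to 314.1, and its oligodendrocyte markers to 103.1 CPM against 30.9 to 49.5. Y-linked transcripts, the sum of 4 genes, were at 15.5 CPM in wild-type 2, 8.47 in control 1 and 5.61 in control 3, against 341.5 to 527.8 in the other 7 libraries, so such libraries made up 1 of 4 wild-type, 2 of 3 control and 0 of 3 repopulated libraries.

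In control against wild-type microglia 7 of the 18 G2 and mitosis members rose (38.9%), where 10.1% of all genes tested rose. Between repopulated and control microglia 0 of the 18 were called, where 0.568% of all genes were. In all, 8 of the 43 members rose in control against wild type and 0 fell, which is 18.6%, where 18.1% of all genes tested were called in either direction, 10.1% higher and 8.04% lower. By role, a division made with earlier results of these data known, the 8 were uneven. They held 7 of the 18 G2 and mitosis genes (Mki67, Top2a, Cdk1, Ccnb1, Birc5, Cenpe and Kif11) and 1 of the 11 replication genes (Pcna), with 0 of the 8 G1 cyclins and CDKs and 0 of the 6 genes of RB, E2F1 and inhibitors. Between repopulated and control microglia, 0 of 43 members were called by edgeR, where 0.568% of all genes were (0.352% higher and 0.216% lower). At an unadjusted p under 0.05 there were 4 members (Mki67, Pcna, Cdkn1b and Cdk6, each lower), where 18.5% of all genes had such a p, and DESeq2 called 1 member (Mki67). Between repopulated and wild-type microglia, 1 of 43 members rose (Cdk1) and 0 fell, where 4.18% of all genes were called, 3.40% higher and 0.784% lower. Each group serves in more than 1 of these comparisons, so the counts are not independent of each other.

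The promoters of 6 of the 8 members that rose are shown first, 5 of mitotic genes and 1 of a replication gene, to set out where CHR elements, CCAAT boxes and E2F sites lie in them, and Birc5 is among them as the mitotic gene with no match. Each sequence runs 5′ to 3′ along the gene's strand from 175 bases before the annotated start to 25 bases after it, in RefSeq on GRCm38.p6. For Mki67 and Top2a that start lies inside the gene coordinates given below, not at their outer end. Capitals mark CHR elements, CCAAT boxes and E2F sites on either strand. A CHR element was searched as TTTGAA and as the variant TTTAAA. The CCAAT box was searched by the letters of its name, which read ATTGG on the other strand. An E2F site was any of the 4 words TTTCCCGC, TTTGGCGC, TTTCGCGC and TTTGCCGC. Top2a carries its CHR element on the other strand, where it reads TTCAAA.
Cdk1, chr10:69352888-69353087, minus strand: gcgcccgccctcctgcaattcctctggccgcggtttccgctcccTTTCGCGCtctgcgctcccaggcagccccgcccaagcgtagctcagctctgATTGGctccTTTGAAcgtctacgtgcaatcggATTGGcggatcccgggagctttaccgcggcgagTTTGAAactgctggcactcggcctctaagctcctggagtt
Mki67, chr7:135716355-135716554, minus strand: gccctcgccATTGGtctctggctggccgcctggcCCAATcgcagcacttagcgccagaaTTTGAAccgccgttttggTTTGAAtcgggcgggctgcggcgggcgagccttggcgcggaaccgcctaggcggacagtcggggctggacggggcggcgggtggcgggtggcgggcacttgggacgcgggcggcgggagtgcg
Top2a, chr11:99024165-99024364, minus strand: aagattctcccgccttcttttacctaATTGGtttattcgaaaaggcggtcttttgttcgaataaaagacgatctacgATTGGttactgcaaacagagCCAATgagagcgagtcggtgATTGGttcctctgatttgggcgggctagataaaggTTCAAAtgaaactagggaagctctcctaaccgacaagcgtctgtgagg
Ccnb1, chr13:100786462-100786661, minus strand: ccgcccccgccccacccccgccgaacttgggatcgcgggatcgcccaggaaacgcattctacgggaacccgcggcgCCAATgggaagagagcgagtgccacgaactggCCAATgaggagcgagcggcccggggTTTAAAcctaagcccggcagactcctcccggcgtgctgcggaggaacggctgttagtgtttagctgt
Birc5, chr11:117849062-117849261, plus strand: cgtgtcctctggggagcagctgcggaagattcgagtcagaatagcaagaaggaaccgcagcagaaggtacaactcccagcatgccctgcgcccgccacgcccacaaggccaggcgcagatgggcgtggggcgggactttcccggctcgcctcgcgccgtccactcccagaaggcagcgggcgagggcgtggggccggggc
Pcna, chr2:132253156-132253355, minus strand: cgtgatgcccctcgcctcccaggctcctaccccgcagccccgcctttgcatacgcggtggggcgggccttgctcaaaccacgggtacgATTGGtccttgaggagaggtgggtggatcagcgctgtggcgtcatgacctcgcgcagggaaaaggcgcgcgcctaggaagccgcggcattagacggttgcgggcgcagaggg
Cdk1, Mki67, Top2a and Ccnb1 each hold at least 1 CHR element and at least 2 CCAAT boxes in these 200 bases, whereas Pcna holds 1 CCAAT box and no CHR match. Birc5 holds 0 matches of any of the motifs there, and Cenpe and Kif11, not printed, hold 1 CHR element and 1 CCAAT box each. Of the 8 members that rose only Cdk1 holds an E2F match in this stretch, TTTCGCGC.

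Over longer windows of 300 bases, from 250 before to 50 after the start, 34 of the 43 members were matched in the RefSeq promoter table. Of the 15 windows of G2 and mitosis genes, 14 held a CHR element and 14 a CCAAT box, which is 93.3% each, and 1 (Cdk1) held an E2F site. Of the 11 windows of replication genes 36.4% held a CHR element, 81.8% a CCAAT box and 36.4% an E2F site, the last in Mcm3, Mcm5, Mcm6 and Mcm7. Over all 32851 windows of the table the shares were 27.6%, 37.4% and 2.26%. The G2 and mitosis windows without a match were that of Bub1 for CHR and that of Birc5 for CCAAT. A match describes letters in a window and not a bound site.

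Mki67 encodes Ki-67, the chromosome-coating protein used to mark cycling cells (Entrez 17345, chr7:135689784-135716450). Its level was 7.24, 11.9, 6.56 and 11.3 CPM in wild-type 1 to 4, 30.7, 23.7 and 22.3 CPM in control 1 to 3, and 10.2, 14.6 and 15.7 CPM in repopulated 1 to 3. The control libraries were above all others, and the repopulated libraries overlapped the wild-type ones. Mki67 rose 2.77-fold in control against wild type (log2 1.47, SE 0.24, edgeR adjusted p = 0.000784). In repopulated against control it was 1.89-fold lower, with a log2 difference of -0.92 and a 95% interval of -1.48 to -0.36, and it was not called (edgeR adjusted p = 0.104). This difference was called without wild-type 3 (edgeR adjusted p = 0.048), with the 2 compared groups fitted alone (edgeR adjusted p = 0.0277) and by DESeq2 (adjusted p = 0.0161), and over all alternatives its adjusted p ran from 0.0161 to 0.361. Against wild type the repopulated level was higher by 0.55 on the log2 scale (interval 0.03 to 1.07, edgeR adjusted p = 0.302).

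Cdk1 encodes the kinase that drives entry into mitosis (Entrez 12534, chr10:69335146-69352912). Its level was 2.85, 5.84, 2.19 and 5.71 CPM in wild-type 1 to 4, 22.4, 12.9 and 16.5 CPM in control 1 to 3, and 8.90, 10.9 and 16.6 CPM in repopulated 1 to 3. Every control and every repopulated library was above every wild-type library, and repopulated 3 lay within the range of the control libraries. In control against wild type Cdk1 rose 4.16-fold (log2 2.06, SE 0.34, edgeR adjusted p = 0.000818), and the call held in all 19 alternative fits. In repopulated against wild type it rose 2.92-fold (log2 1.55, SE 0.34, edgeR adjusted p = 0.0168), which was lost only without repopulated 3 (edgeR adjusted p = 0.122, the highest of all alternatives). Between repopulated and control the log2 difference was -0.51 with an interval of -1.28 to 0.26 (edgeR adjusted p = 0.474).

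Top2a encodes topoisomerase II alpha, which untangles sister chromosomes (Entrez 21973, chr11:98992947-99024199). Its level was 6.85, 11.97, 2.28 and 8.90 CPM in wild-type 1 to 4, 29.8, 21.9 and 18.3 CPM in control 1 to 3, and 12.4, 11.9 and 18.8 CPM in repopulated 1 to 3. Control libraries were all above wild-type ones, and the repopulated range overlapped both. Top2a rose 3.11-fold in control against wild type (log2 1.64, SE 0.38, edgeR adjusted p = 0.00938). The call was lost when the 3 libraries low in Y-linked transcripts were left out, at a log2 difference of 1.87 (edgeR adjusted p = 0.0552). In repopulated against control the log2 difference was -0.70 with an interval of -1.57 to 0.18, and in repopulated against wild type it was 0.94 with an interval of 0.12 to 1.76 (edgeR adjusted p = 0.378 and 0.246).

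Ccnb1, cyclin B1, activates CDK1 (Entrez 268697, chr13:100778739-100786486). Its level was 5.69, 5.03, 0.97 and 5.98 CPM in wild-type 1 to 4, 11.9, 10.5 and 10.5 CPM in control 1 to 3, and 5.66, 7.36 and 8.62 CPM in repopulated 1 to 3. Control libraries were above all others, and wild-type 3 was the lowest. It rose 2.47-fold in control against wild type (log2 1.31, SE 0.41, edgeR adjusted p = 0.0399). Birc5, survivin, is a subunit of the chromosomal passenger complex that corrects kinetochore attachments (Entrez 11799, chr11:117849237-117855743). Its level was 4.87, 4.65, 3.06 and 2.70 CPM in wild-type 1 to 4, 9.95, 8.11 and 6.27 CPM in control 1 to 3, and 5.89, 5.26 and 6.98 CPM in repopulated 1 to 3. All libraries of both 5xFAD groups were above all wild-type libraries. Birc5 rose 2.12-fold in control against wild type (log2 1.09, SE 0.29, edgeR adjusted p = 0.0187).

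Cenpe encodes a kinetochore motor (Entrez 229841, chr3:135212563-135273540). Its level was 0, 1.42, 1.51 and 2.74 CPM in wild-type 1 to 4, 9.16, 4.53 and 7.40 CPM in control 1 to 3, and 3.82, 4.34 and 5.08 CPM in repopulated 1 to 3. Both 5xFAD groups were above wild type in every library, and wild-type 1 had no read. Cenpe rose 4.93-fold in control against wild type (log2 2.30, SE 0.69, edgeR adjusted p = 0.0329). Kif11 encodes the motor that separates the spindle poles (Entrez 16551, chr19:37376382-37421863). Its level was 0.96, 4.08, 0.83 and 3.50 CPM in wild-type 1 to 4, 5.57, 5.24 and 8.96 CPM in control 1 to 3, and 5.48, 4.03 and 3.89 CPM in repopulated 1 to 3. Control libraries were above wild type, and repopulated ones overlapped both groups. Kif11 rose 2.80-fold in control against wild type (log2 1.49, SE 0.49, edgeR adjusted p = 0.0477).

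These 4 calls, from 2.12-fold to 4.93-fold, rested on few reads and were near the threshold. Kif11 had 17 to 190 estimated counts in a library, and Ccnb1 had 20 to 241. With any 1 of the 3 control or 3 repopulated libraries or wild-type 2 left out, Ccnb1 and Cenpe were not called, with edgeR adjusted p-values from 0.0524 to 0.116 and from 0.0504 to 0.12. Kif11 was not called without wild-type 1, wild-type 3 or any 1 control or repopulated library (0.051 to 0.174), and Birc5 was not called without wild-type 4, control 1 or control 2 (0.0521 to 0.104). Over all alternatives the adjusted p-values reached 0.262 for Ccnb1, 0.122 for Birc5, 0.411 for Cenpe and 0.213 for Kif11. With the replicate number as a block Birc5 was not called (edgeR adjusted p = 0.0885).

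**Figure D1:**
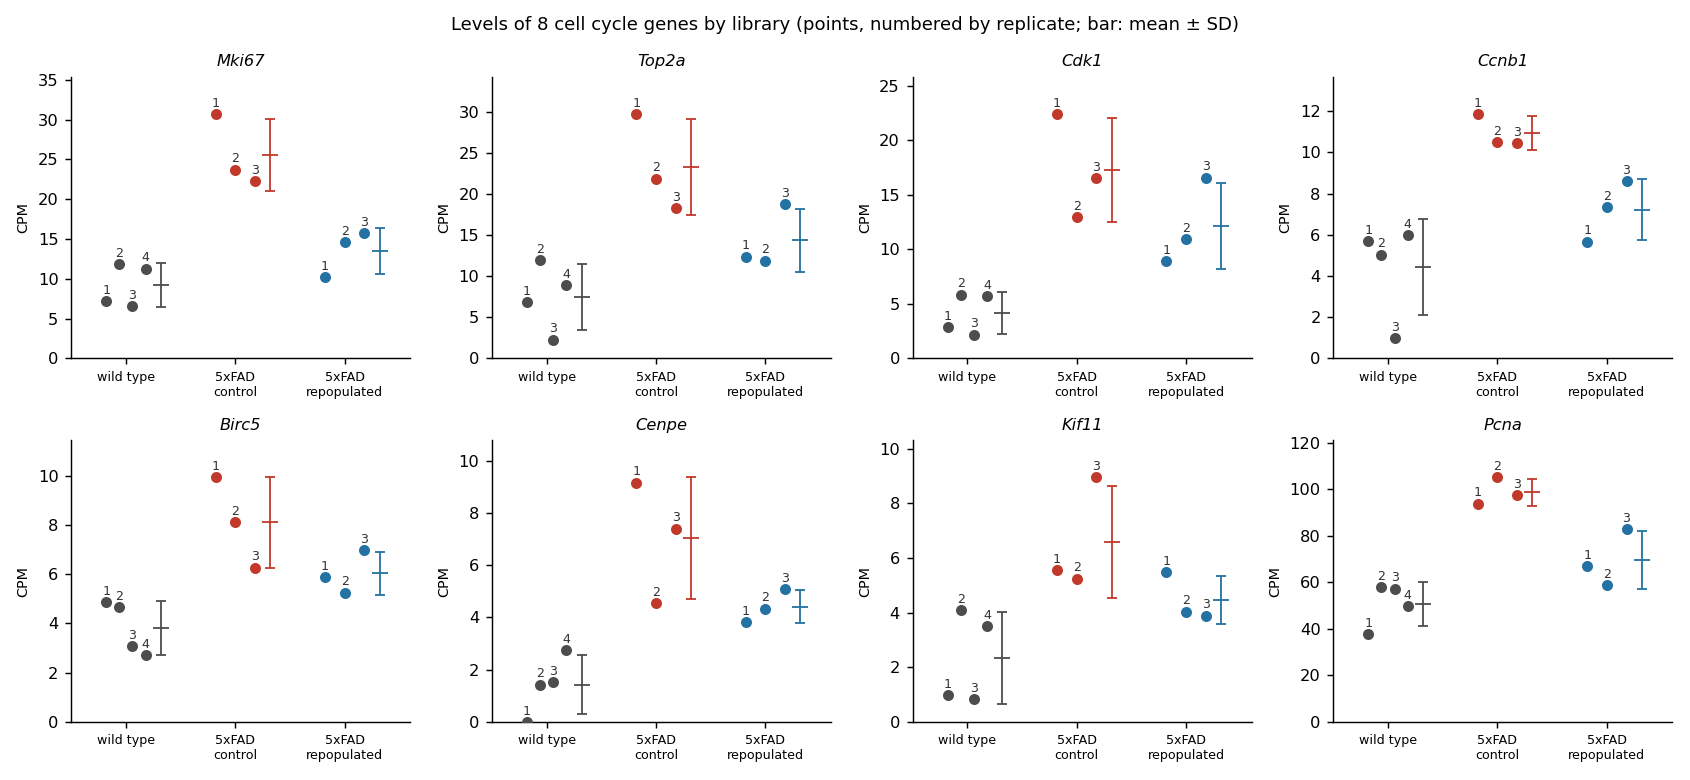
Level in CPM of the 8 members that rose in control against wild type, by library (points, numbered by replicate) with the mean ± SD of each group. For Mki67 the control libraries stand at 22.3 to 30.7 CPM and the repopulated ones at 10.2 to 15.7, whereas for Cdk1 repopulated 3 (16.6) lies within the control range of 12.9 to 22.4.

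The other 11 G2 and mitosis genes were not called in any comparison. In control against wild type 17 of the 18 lay above 0, with a median log2 difference of 1.14 where all genes tested had -0.06. The exception was Bub1b, a spindle checkpoint kinase, at -0.25. In repopulated against control 16 of the 18 lay below 0, with a median of -0.50 against 0.00 for all genes. Aurka, a spindle pole kinase, and Ube2c, which tags cyclins for destruction with the anaphase-promoting complex, were the exceptions at 0.09 and 1.22. In repopulated against wild type 17 of 18 lay above 0, with a median of 0.65 against -0.02 for all genes.

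Ube2c differed from the other mitotic genes in the order of its groups. Its level was 0.10, 0.66, 0.44 and 0.67 CPM in wild-type 1 to 4, 1.18, 1.06 and 0.61 CPM in control 1 to 3, and 1.48, 2.15 and 3.05 CPM in repopulated 1 to 3. All repopulated libraries were above all others. Its log2 difference in repopulated against wild type was 2.23 with an interval of 0.75 to 3.72, not called by edgeR (adjusted p = 0.102) and called by DESeq2 (adjusted p = 0.0192), with all alternatives between 0.0192 and 0.333. Ube2c overlaps Tnnc2 on the opposite strand, and it is named here for values seen. Ccnb2, cyclin B2, was the remaining G2 member called in any alternative. Its level was 1.83, 7.22, 0.68 and 3.19 CPM in wild-type 1 to 4, 12.8, 5.14 and 7.78 CPM in control 1 to 3, and 6.61, 8.85 and 9.50 CPM in repopulated 1 to 3. Without wild-type 2, the highest of its group, Ccnb2 was called in control against wild type (edgeR adjusted p = 0.0083) and in repopulated against wild type (0.0274), where all libraries gave 0.0902 and 0.232. Over all alternatives these adjusted p-values ran from 0.0083 to 0.310 and from 0.021 to 0.477.

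Summed over the 18 G2 and mitosis genes, the level was 58.8, 88.3, 33.7 and 72.5 CPM in wild-type 1 to 4, 191.0, 126.8 and 134.5 CPM in control 1 to 3, and 88.1, 101.4 and 123.6 CPM in repopulated 1 to 3. Control libraries were the highest, and repopulated 1 was just under wild-type 2. Summed TPM, which is scaled for gene length, ran from 16.6 to 58.2 in wild type, from 63.8 to 91.1 in control and from 54.5 to 70.1 in repopulated libraries, so on that scale the control and repopulated ranges overlapped. Within the wild-type group the library low in Y-linked transcripts had the highest sum on both scales. Within the control group both such libraries were above control 2 in summed CPM. In summed TPM control 3 (63.8) was below control 2 (66.3). Wild-type 3, which had the highest neuron, erythroid, astrocyte and oligodendrocyte marker sums, had the lowest mitotic sum of all. The part of neuron, erythroid, astrocyte and oligodendrocyte RNA in the group differences was not tested. With the 3 libraries low in Y-linked transcripts removed, a fit in which control 2 is the only one of its group and is assumed to vary like the others, Cdk1, Mki67 and Pcna were still called in control against wild type (log2 1.86, 1.51 and 1.13).

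**Figure D2:**
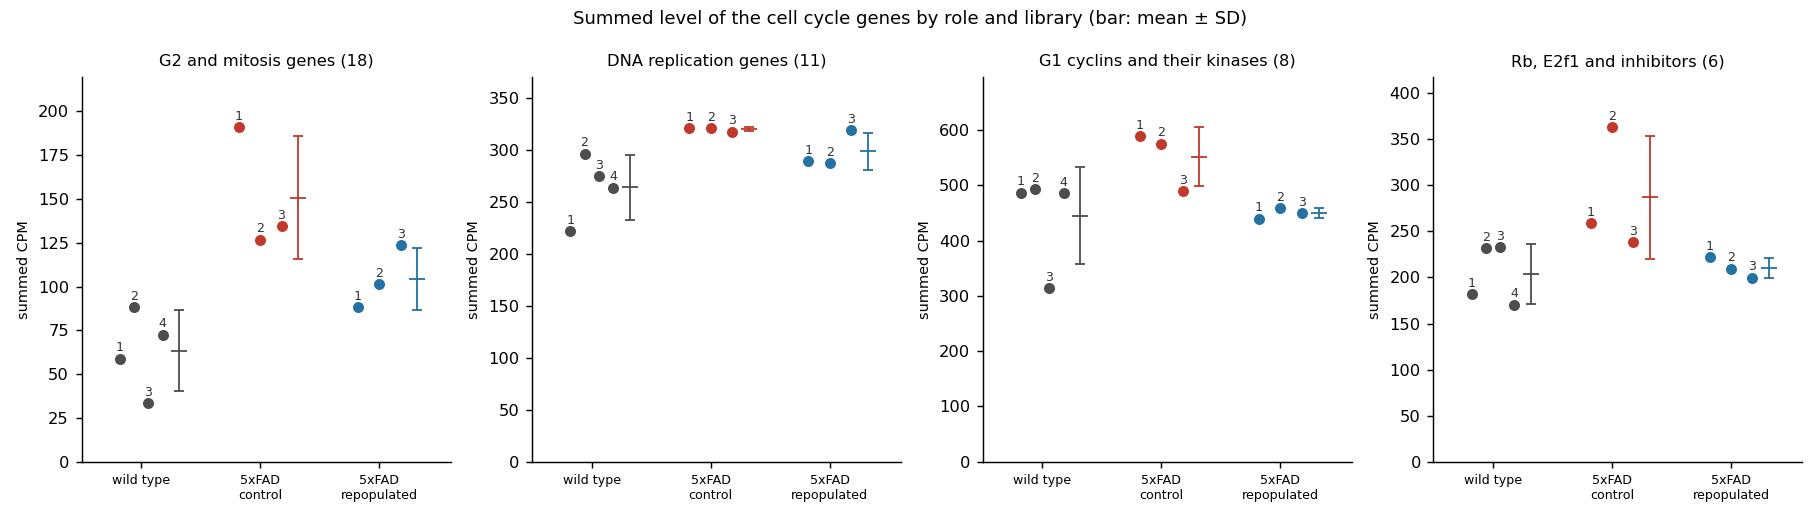
Summed CPM of the members by role and library, with the mean ± SD of each group. For G2 and mitosis the control libraries (126.8 to 191.0 CPM) lie above the repopulated (88.1 to 123.6) and wild-type ones (33.7 to 88.3). For RB, E2F1 and inhibitors control (238 to 363 CPM) also lies above repopulated (200 to 222) and wild type (170 to 233). For replication control (318 to 321) lies above wild type (222 to 297) and overlaps repopulated (287 to 319). For G1 control (491 to 589) lies above repopulated (440 to 458) and overlaps wild type (314 to 494).

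Dividing cells of other kinds could add such transcripts, so their markers were read in the same libraries. Neutrophil and precursor markers (10 genes) summed to between 17.7 and 319.2 CPM, with overlapping ranges of 32.2 to 251.6 in wild type, 17.7 to 319.2 in control and 67.3 to 167.2 in repopulated libraries. Of this list Elane was at 0 to 0.14 CPM, Mpo at 0 to 0.10 and Prtn3 at 0 everywhere. Nearly all of the sum came from the other markers, S100a8, S100a9, Ngp, Camp, Ltf, Retnlg and Ly6g. Neural progenitor markers (6 of 7 genes in the table) summed to 0.724 to 3.40 CPM in wild type, 3.69 to 5.19 in control and 3.71 to 6.43 in repopulated libraries. The sum was thus higher in every 5xFAD library than in every wild-type one, but the list did not move as a whole. Only 2 of these markers were tested, and neither was called. Against wild type 1 was higher and 1 lower, at log2 1.73 and -0.38 in control and 1.69 and -0.10 in repopulated microglia. In the 5xFAD libraries most of that sum was Nes at 2.51 to 4.10 CPM, while Dcx, Eomes and Sox2 were at 0 to 0.45 CPM in every library. Oligodendrocyte precursor markers (5 genes) summed to 0 to 0.826 CPM in wild type, 0.605 to 3.50 in control and 1.53 to 4.64 in repopulated libraries, of which Cspg4 rose in control against wild type (log2 4.36, edgeR adjusted p = 0.0113) and in repopulated against wild type (log2 4.65, edgeR adjusted p = 0.0213), while Pdgfra, Olig1, Olig2 and Sox10 were at 0 to 0.63 CPM in every library. B cell markers (4 of 5 genes in the table) summed to 52.2 to 78.3 CPM in wild type, 41.2 to 58.4 in control and 39.6 to 49.3 in repopulated libraries, nearly all of it Cd79b, while Cd79a and Ms4a1 were at 0 to 0.20 CPM. T and NK cell markers (5 of 9 genes in the table) summed to 0.675 to 2.87 CPM. Endothelial markers (5 genes) summed to 14.9 to 39.0 CPM in wild type, 34.1 to 38.0 in control and 30.2 to 38.1 in repopulated libraries. Of them Flt1, a VEGF receptor, rose in control and in repopulated against wild type (log2 4.01 and 3.44, edgeR adjusted p = 1.07e-06 and 7.52e-06) and Pecam1 fell in control against wild type (log2 -1.14, edgeR adjusted p = 0.0201), while Cldn5 and Ly6c1 were at 0 to 0.49 CPM. Monocyte markers (5 genes) summed to 22.5 to 48.4 CPM in wild type. Their sum was 17.2 to 42.5 CPM in control and 18.9 to 24.1 in repopulated libraries. Border macrophage markers (6 genes) summed to 61.5 to 103.4 CPM in wild type. Their sum was 56.7 to 104.3 CPM in control and 47.0 to 81.1 in repopulated libraries. Neither list held a gene called in any comparison. The part of neutrophil, monocyte, border macrophage, progenitor, precursor, B cell, T cell and endothelial RNA in the mitotic result was not tested.

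Of the replication genes only Pcna was called. Pcna encodes the sliding clamp that holds DNA polymerase on its template and also serves in repair (Entrez 18538, chr2:132249286-132253180). Its level was 37.6, 57.9, 57.2 and 49.7 CPM in wild-type 1 to 4, 93.8, 105.1 and 97.3 CPM in control 1 to 3, and 67.0, 58.7 and 82.9 CPM in repopulated 1 to 3. The 3 groups did not overlap, with repopulated libraries between wild type and control. In control against wild type Pcna rose 1.95-fold (log2 0.96, SE 0.16, edgeR adjusted p = 0.0009), and the call held in all 19 alternative fits. The repopulated level was lower than control by a log2 difference of -0.51 (interval -0.88 to -0.13) and higher than wild type by 0.46 (interval 0.11 to 0.81), neither of them called (edgeR adjusted p = 0.154 and 0.165). Estimated counts of Pcna could be shared with its annotated pseudogenes Pcna-ps1 and Pcna-ps2, and those of Ccnb1 with Ccnb1-ps.

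Mcm2, a subunit of the MCM helicase that unwinds DNA, was at 5.55, 4.75, 2.96 and 5.53 CPM in wild-type 1 to 4, 5.57, 6.45 and 8.06 CPM in control 1 to 3, and 6.97, 5.21 and 5.57 CPM in repopulated 1 to 3. Rrm2, the regulated subunit of ribonucleotide reductase, which makes deoxynucleotides, was at 1.54, 2.61, 0.19 and 2.43 CPM in wild-type 1 to 4, 4.63, 5.14 and 3.58 CPM in control 1 to 3, and 2.52, 3.99 and 3.45 CPM in repopulated 1 to 3. Control libraries were above wild type for both genes, and neither was called (log2 0.51 and 1.39, edgeR adjusted p = 0.238 and 0.104), although Rrm2 was called without wild-type 3 (0.045, with all alternatives up to 0.246). Mcm3 to Mcm7, Rrm1, Tyms (thymidylate synthase) and Tk1 (thymidine kinase) were called in no comparison, with log2 differences in control against wild type from -0.22 (Mcm7) to 0.59 (Tk1). Tyms, at 64.8 to 83.4 CPM over the 10 libraries, gave some of the narrowest intervals, from -0.35 to 0.18 in control against wild type and from -0.27 to 0.27 in repopulated against wild type. The median log2 difference of the 11 replication genes was 0.22 in control against wild type, -0.16 in repopulated against control and 0.21 in repopulated against wild type.

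**Figure D3:**
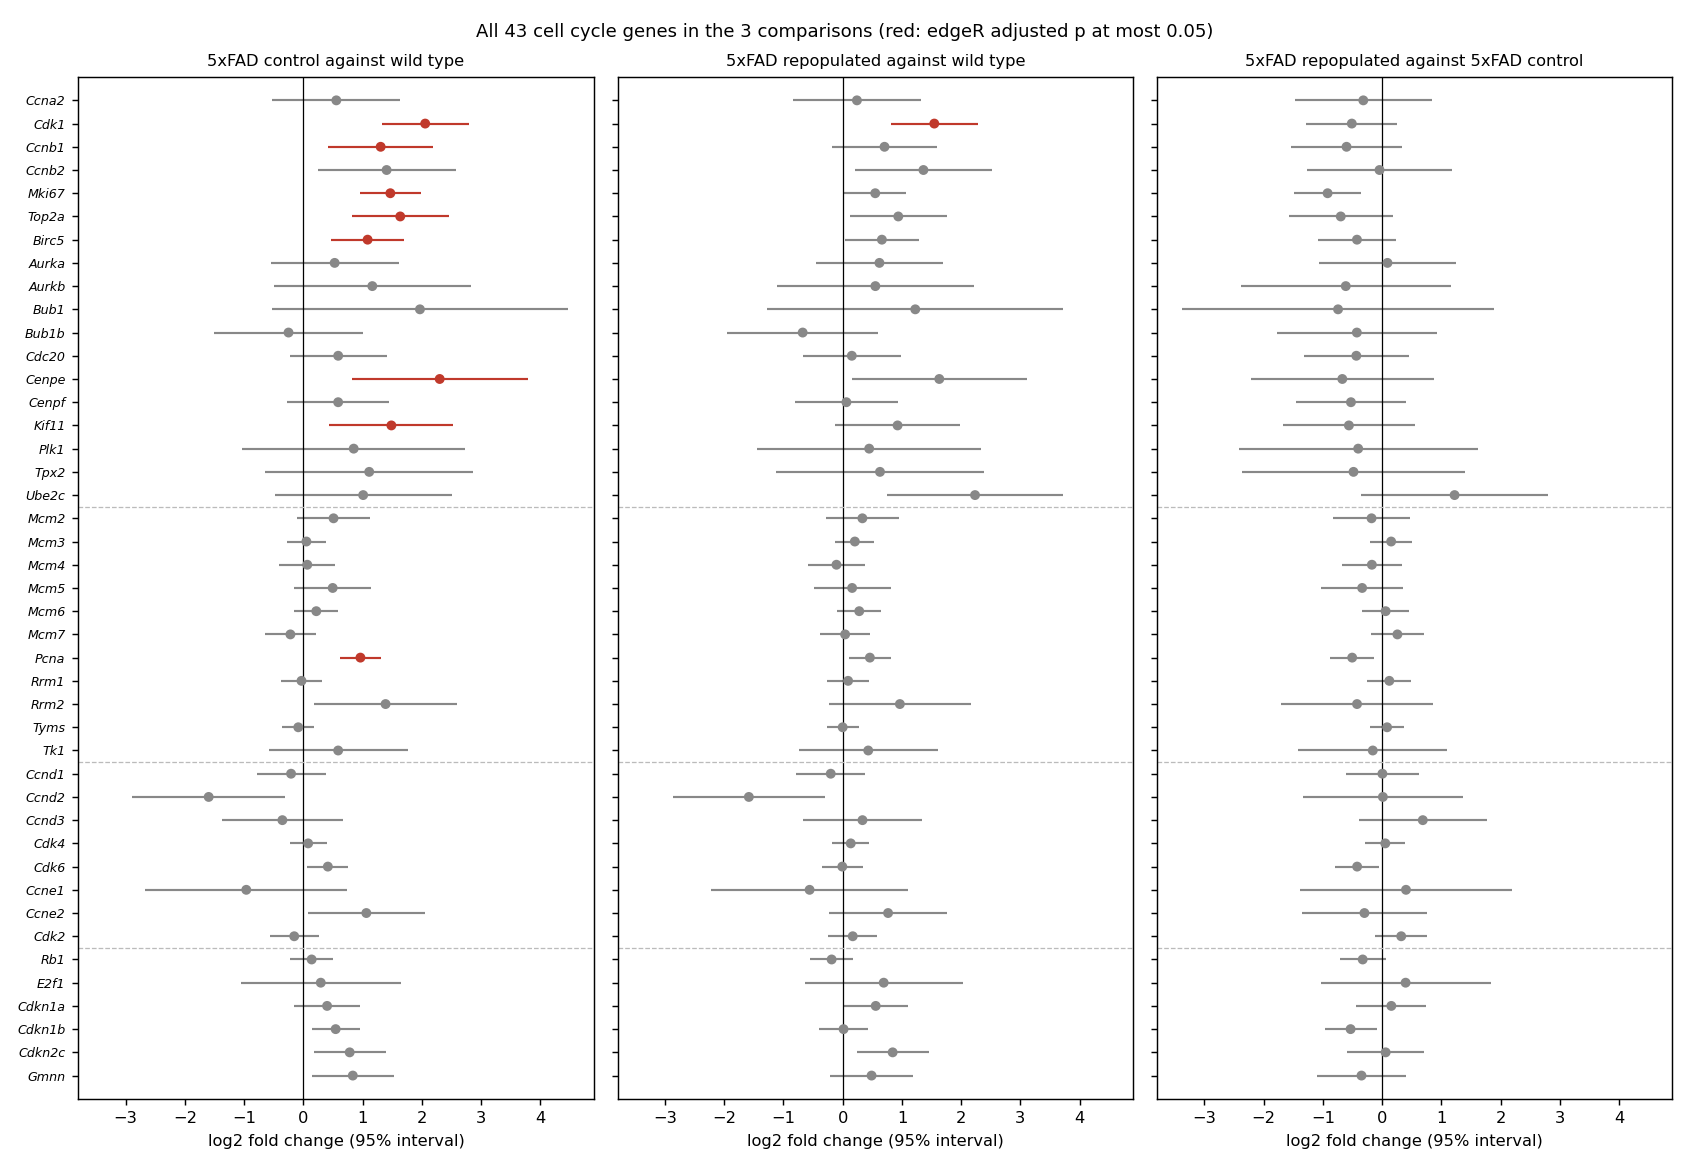
Log2 fold change with its 95% interval for the 43 members in the 3 comparisons, ordered by role from G2 and mitosis at the top, with members at an edgeR adjusted p of at most 0.05 in red. Of the 18 G2 and mitosis genes 17 lie above 0 in both comparisons with wild type, and 16 lie below 0 in repopulated against control, where no member is red.

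The cyclins and kinases of G1 were not called in any comparison. Ccnd1, cyclin D1, was at 21.7, 12.6, 11.9 and 26.6 CPM in wild-type 1 to 4, 18.2, 14.6 and 14.6 CPM in control 1 to 3, and 11.9, 17.5 and 18.1 CPM in repopulated 1 to 3. Ccnd3, cyclin D3, was at 12.2, 8.50, 2.09 and 15.7 CPM in wild-type 1 to 4, 7.29, 4.74 and 10.6 CPM in control 1 to 3, and 11.5, 14.5 and 10.4 CPM in repopulated 1 to 3. Groups of both genes overlapped. Ccnd2, cyclin D2, was at 4.58, 1.95, 9.52 and 1.66 CPM in wild-type 1 to 4, 1.03, 1.36 and 1.98 CPM in control 1 to 3, and 0.85, 1.93 and 1.64 CPM in repopulated 1 to 3. Wild-type 1 and wild-type 3 were high and the other 8 libraries lay at 0.85 to 1.98 CPM. Its log2 difference in control against wild type was -1.60 (edgeR adjusted p = 0.0826), and DESeq2 called it lower (adjusted p = 0.0415, with all alternatives up to 0.330).

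Of the kinases that pair with these cyclins, Cdk4 was at 45.2, 48.8, 35.9 and 49.2 CPM in wild-type 1 to 4, 52.2, 41.4 and 48.6 CPM in control 1 to 3, and 48.8, 52.6 and 46.3 CPM in repopulated 1 to 3. Cdk6 was at 371.3, 386.8, 232.7 and 360.5 CPM in wild-type 1 to 4, 482.3, 483.4 and 385.2 CPM in control 1 to 3, and 332.1, 337.3 and 339.4 CPM in repopulated 1 to 3. Every control library was above every repopulated one for Cdk6, while Cdk4 overlapped in all groups. The log2 difference of Cdk6 was 0.41 in control against wild type and -0.42 in repopulated against control (edgeR adjusted p = 0.0941 and 0.217), and DESeq2 called the first (adjusted p = 0.0395, with all alternatives up to 0.253). Per length, with TPM averaged over the 10 libraries, Cdk4 was at 63.3 and Cdk6 at 51.4, against 11.5 for Ccnd3, 7.53 for Ccnd1 and 0.754 for Ccnd2, so both kinases were above the cyclins that activate them. On the same TPM scale Mki67 was at 2.58, Cdk1 at 3.79 and Pcna at 106. Ccne1 and Ccne2, the E-type cyclins, and Cdk2, their kinase, were not called, with log2 differences of -0.96, 1.06 and -0.15 in control against wild type, and Ccne2 was called there without wild-type 2 (edgeR adjusted p = 0.0225, with all alternatives up to 0.458).

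The 6 members of the group of RB, E2F1 and inhibitors (Cdkn1a, Cdkn1b, Cdkn2c, Gmnn, Rb1 and E2f1) were called in no comparison. Cdkn1b encodes p27, which blocks cyclin-CDK complexes in resting cells. Its level was 131.6, 180.0, 188.6 and 118.5 CPM in wild-type 1 to 4, 193.3, 298.6 and 185.6 CPM in control 1 to 3, and 169.5, 157.0 and 142.2 CPM in repopulated 1 to 3. Control libraries were above repopulated ones, with control 2 the highest. The log2 difference was 0.55 in control against wild type (interval 0.14 to 0.95, edgeR adjusted p = 0.0612) and -0.53 in repopulated against control (interval -0.97 to -0.09, edgeR adjusted p = 0.191). The first was called in 5 of 19 alternatives, which were no filter on low counts, DESeq2, the fit without the 3 libraries low in Y-linked transcripts, and the fits without wild-type 3 and without control 3. Over all alternatives its adjusted p ran from 0.0252 to 0.329. Cdkn1a encodes p21, a p53-induced inhibitor, and was at 5.93, 8.41, 6.90 and 12.1 CPM in wild-type 1 to 4, 12.5, 10.6 and 9.99 CPM in control 1 to 3, and 10.3, 15.6 and 10.96 CPM in repopulated 1 to 3. Its groups overlapped, and it was not called.

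Rb1, which encodes RB itself, was at 37.1, 35.1, 29.2 and 32.04 CPM in wild-type 1 to 4, 42.0, 40.5 and 27.9 CPM in control 1 to 3, and 30.0, 25.5 and 32.4 CPM in repopulated 1 to 3. E2f1, the activating E2F factor, was at 1.45, 0.33, 0.78 and 1.35 CPM in wild-type 1 to 4, 1.23, 0.86 and 1.51 CPM in control 1 to 3, and 1.62, 1.40 and 1.72 CPM in repopulated 1 to 3. Neither was called, and the wild-type and control groups overlapped for both. Cdkn2c, the CDK4 and CDK6 inhibitor p18, was above all wild-type libraries in every 5xFAD library, at 4.84 to 8.22 CPM against 2.88 to 4.15, and Gmnn, which encodes the replication licensing inhibitor geminin, was at 3.85 to 7.61 against 2.03 to 3.70. Neither was called (control against wild type, edgeR adjusted p = 0.0727 and 0.0911).

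**Figure D4:**
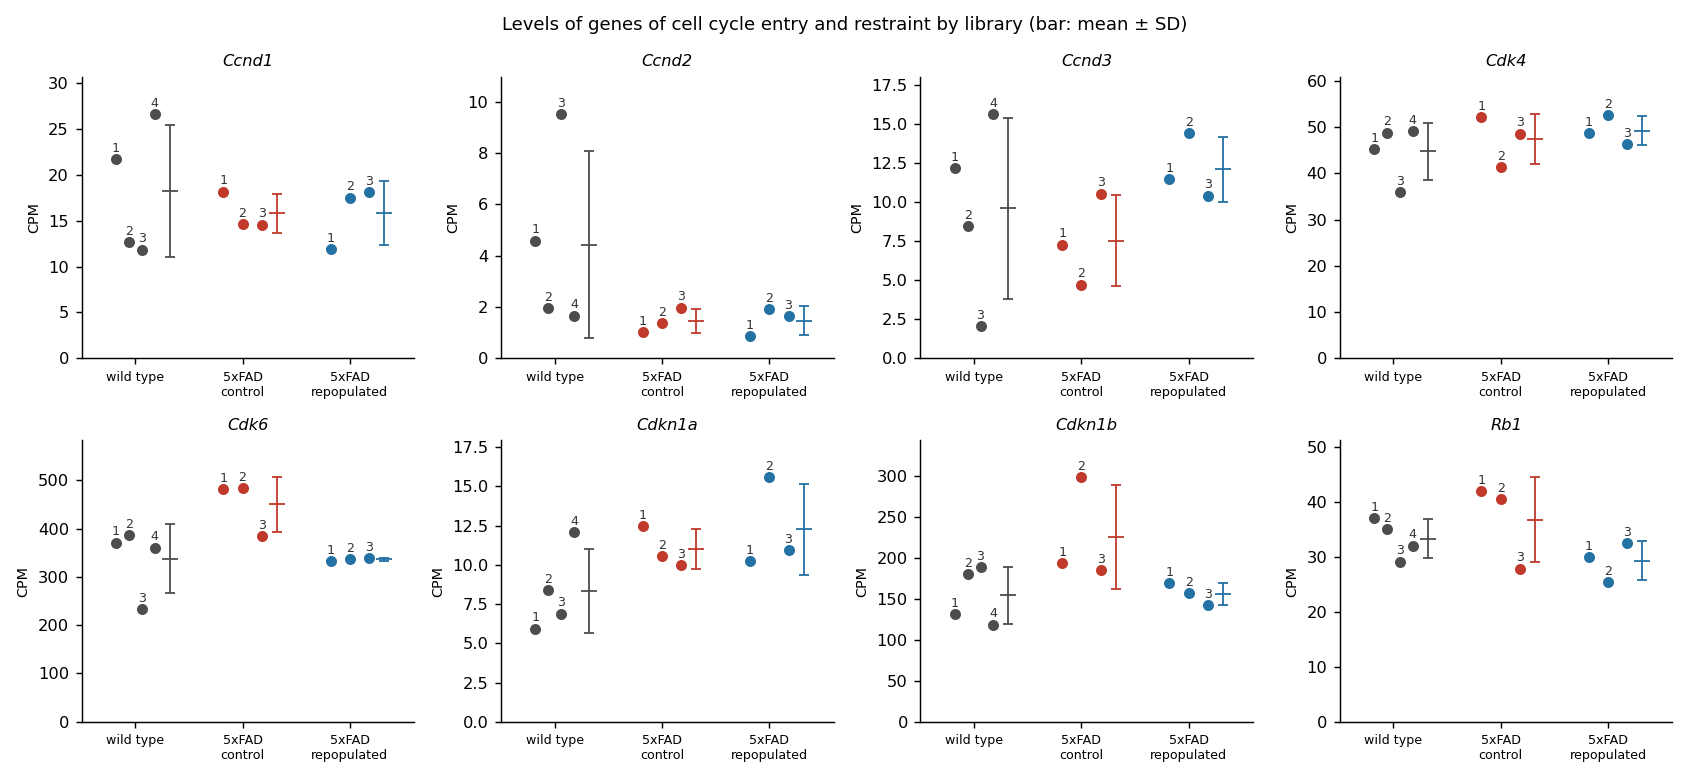
Level in CPM of D-type cyclins, their kinases, Cdkn1a, Cdkn1b and Rb1 by library, with the mean ± SD of each group. Cdkn1b and Cdk6 have every control library above every repopulated one, Ccnd2 is high in wild-type 1 and 3 only, and the groups overlap for the rest.

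Of all 43 members, 13 had every control library above every wild-type library and 0 had every one below, where 14.1% and 12.6% of all genes tested did. For repopulated against wild type these numbers were 8 and 0 (9.13% and 6.82% of all genes), and for repopulated against control 2 above and 6 below (15.0% and 15.7%). The 6 with every repopulated library below every control library were Mki67, Ccnb1, Cdc20, Pcna, Cdkn1b and Cdk6. The 2 above were Ube2c and Cdk2.

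Genes of the same pathway outside the list were read from the same fit. Among 70 other mitotic genes tested of 73 listed, 4 rose in control against wild type (Smc4, Nuf2, Stmn1 and Lmnb1) and 2 fell (Ncaph and Fzr1). Of the 70, 60 lay above 0, where 45.7% of all genes did, with a median log2 difference of 0.66 against -0.06 for all genes. The 6 calls are 8.57% of the 70, below the 18.1% of all genes. Every control library was above every wild-type one for 19 of the 70 and below for 3, where 14.1% and 12.6% of all genes were so. In repopulated against control 0 were called by edgeR, with 54 below 0 and 16 above, where 49.9% of all genes lay above 0. Of the 70, 3 were under an unadjusted edgeR p of 0.05, where 18.5% of all genes were. In repopulated against wild type 2 rose (Stmn1 and Lmnb1) and 1 fell (Ncaph), which is 4.29%, near the 4.18% of all genes. Stmn1 encodes stathmin, which destabilises microtubules, and its level was 10.3 to 24.8 CPM in wild type, 31.5 to 41.5 in control and 32.3 to 34.1 in repopulated libraries. Both 5xFAD groups were above wild type in every library (log2 1.02 and 0.87, edgeR adjusted p = 0.006 and 0.0399). Lmnb1, lamin B1 of the nuclear envelope, was at 0.87 to 2.94 CPM in wild type, 5.79 to 7.88 in control and 4.36 to 8.09 in repopulated libraries (log2 1.68 and 1.60, edgeR adjusted p = 0.00659 and 0.0233). Ncaph, a condensin subunit, went the other way at 28.5 to 36.4 CPM in wild type, 14.9 to 18.2 in control and 15.4 to 21.9 in repopulated libraries (log2 -0.99 and -0.76, edgeR adjusted p = 0.00107 and 0.0174). Spc24, a kinetochore protein, was at a log2 difference of -0.78 in repopulated against wild type and was not called (edgeR adjusted p = 0.0502).

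Among 50 other replication genes 1 rose in control against wild type, Chaf1b, a histone chaperone subunit (log2 1.85, edgeR adjusted p = 0.0322), which is 2.0% against 18.1% of all genes, and 0 were called in either of the other comparisons, with 2 and 4 under an unadjusted p of 0.05, where 18.5% and 15.1% of all genes were. Tipin, Asf1b and Pole, next by p, were not called (lowest edgeR adjusted p = 0.0665, 0.102 and 0.221). Among 18 other genes of the RB, E2F, MuvB and FOXM1 circuit, E2f6, a repressive E2F factor, rose in control against wild type (log2 1.12, edgeR adjusted p = 0.0142), which is 5.56% of the 18, and Myc, Lin52 and E2f2 were not called. Among 21 other growth restraints 1 rose (Btg1) and 6 fell (Trp53, Gadd45g, Btg2, Sesn1, Foxo1 and Tsc22d3) in control against wild type, with edgeR adjusted p-values of 0.019 for Btg1 and 0.0192 for Trp53, which encodes p53. The 7 are 33.3% of the 21, where 18.1% of all genes were called, 10.1% higher and 8.04% lower. In repopulated against control 2 of them rose, which is 9.52% against 0.568% of all genes, and these were Btg2, an antiproliferative early response gene, and Tsc22d3, the glucocorticoid-induced leucine zipper. Btg2 was at 183.0 to 202.3 CPM in wild type, 76.0 to 109.1 in control and 159.6 to 190.3 in repopulated libraries (repopulated against control, log2 0.94, edgeR adjusted p = 0.0158). Tsc22d3 was at 46.6 to 92.8 CPM in wild type, 19.9 to 26.1 in control and 43.9 to 88.8 in repopulated libraries (log2 1.68, edgeR adjusted p = 0.0158). For both, control libraries were below all others, and the repopulated range overlapped the wild-type range. Neither rise held in every alternative fit. With Y-linked status as a term, or without repopulated 2, no gene at all was called higher in repopulated against control.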

How the data were processed

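Smart-Seq libraries of sorted hippocampal microglia were analysed from 1 table. Per the file headers, the deposited estimated counts (expected counts) are reads per gene before any normalisation. Of the values above 0, 20.1% differ from a whole number by more than 0.001. The deposited TPM are, per the file headers, scaled for gene length and library size; TPM entered no test. The deposited FPKM, scaled likewise per the file headers, were not used. HISAT, Bowtie2 and the build GRCm38.p6 are named in the submitters' processing notes. The strand setting, quantifier and versions were not given in the sources used here. A quantifier may divide reads among near-identical copies: 5 members have an annotated pseudogene of their own name, and 16 share exon bases with another gene (15 on the opposite strand) in GENCODE. Gene coordinates and promoters are RefSeq's on GRCm38.p6, for which 19725 gene identifiers matched.

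The rounded counts entered edgeR 4.0.16 under R 4.3.3 (limma 3.58.1): filterByExpr, TMM factors, robust quasi-likelihood fits of 1 model with 3 groups over all 10 libraries, a prior count of 0.125 for fold changes, and Benjamini-Hochberg adjustment over all 12505 genes at 0.05. The biological coefficient of variation was 27.3%. Standard errors were derived from the F statistic of each contrast, and intervals are at 95%. The procedure was tested on simulated data. All libraries of a group differed by more than sampling noise.

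The members, their division by role, the other gene lists and the cell type markers were chosen with earlier results of these data known. Values in every library are given for members called in any comparison and for 16 members picked by role, and up to 4 genes by smallest p are named from each other list; the remaining called genes of those lists (Smc4, Nuf2, Fzr1, Gadd45g, Sesn1 and Foxo1 among them), Ube2c, Ccnb2 and the other genes named by role or sign were named after their values were seen. Alternatives were DESeq2 1.42.0 as test and as factors, upper-quartile factors, no filter, a filter of 5 CPM in 3 libraries, the compared groups alone, a replicate block, each library left out, a term for Y-linked transcripts (threshold 50 CPM over 4 genes), and the 3 libraries low in them left out.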

Additional observations from a re-analysis of the deposited data

Results flagged for a closer look

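Of the 43 members, 4 had 1 wild-type library far from the other 3, by a gap to the nearest one, as a share of the group's range, above Dixon's critical value for 4 samples. Chance alone flags about 1 in 20 groups, and only the wild-type group, with 4 libraries, was large enough to be read this way. Cdk6 was at 232.7 CPM in wild-type 3 against 360.5 to 386.8 in the others. Cdk2 was at 16.6 CPM in wild-type 3 against 28.9 to 30.2. Gmnn was at 2.03 CPM in wild-type 1 against 3.45 to 3.70. Mcm6 was at 14.3 CPM in wild-type 1 against 19.3 to 20.2.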

How the results depend on the processing

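No member that was called changed direction under any alternative. In control against wild type 8 members were called. The number was 5 with the compared groups alone, 4 with a term for Y-linked transcripts (Pcna, Cdk1, Mki67 and Top2a), 5 without the 3 libraries low in them, 12 with DESeq2, and 4 to 9 with 1 library left out. Of all genes 2265 were called, 1203 without those 3 libraries and 1341 to 2901 with 1 left out. In repopulated against control 0 members were called, 1 (Mki67) with the compared groups alone and with DESeq2, and 0 to 1 with 1 library left out. Of all genes 71 were called there, 166 without a filter, 125 with the filter of 5 CPM, 597 with the compared groups alone, 1 with the term for Y-linked transcripts, 380 without the 3 libraries, 698 with DESeq2, and 0 to 330 with 1 library left out. In repopulated against wild type 1 member was called, 2 with the term for Y-linked transcripts, 2 with DESeq2, and 0 to 2 with 1 library left out. Of all genes 523 were called, 287 without the 3 libraries and 283 to 678 with 1 left out. The causes were not tested. Whether the replicate numbers pair the libraries cannot be told from so few libraries per group. The 9 same-number pairs correlated at -0.19 to 0.13 in their deviations, 1 of them above 0.1. Pairs of different number correlated at -0.18 to 0.26. With the replicate number as a block, 7, 0 and 1 members and 1464, 25 and 376 genes were called in the 3 comparisons. The intervals of members at a few CPM, such as E2f1, Plk1 and Bub1, span several log2 units, and how much of that is counting error was not tested.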
